A study of Setaria viridis with 13 samples.

Results

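The coleoptile of green millet (Setaria viridis, accession A10) was compared with the bulk shoot of stage V3, gene by gene, as 2 of the 13 tissue and stage samples whose RNA was sequenced in this study. The coleoptile (labelled VE) was taken 3 days after germination and the V3 bulk shoot at 10 days, both from wild-type plants. The other 11 samples were the bulk shoots of V5 (15 days) and R (20 days), 4 parts of leaf 3, the vegetative and the inflorescence meristem, the V5 root, and the panicle before and after anthesis. Per the labels' protocols, seeds germinated on wet filter paper and seedlings moved after 3 days to hydroponics, so organ, age and growth setting cannot be told apart between the coleoptile and the shoot. Each sample had a single column of values in which its 3 biological replicates were merged. No spread between replicates was available, no test was made, and differences are described by their size. The values carry no read counts, so depth is unknown.

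In grasses the coleoptile is the sheath that surrounds the first leaves and the shoot apex while the seedling pushes through the soil. It grows mostly by cell elongation, stops when the first leaf breaks through its tip, and then ages. It is a classical organ for work on auxin, on growth towards light and on wall loosening. Leaf blades of this C4 grass, which make up much of a bulk shoot, carry the photosynthetic machinery in mesophyll and bundle sheath cells. The table gives genes by ID only, and none of its 35471 gene IDs matched the reference gene table, so no gene is given a name or a role here, and the labels of the samples could not be checked against marker genes.

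Levels are given as FPKM, fragments per kilobase of transcript divided by the total of the sample, and differences as coleoptile minus V3 shoot on the log2(FPKM + 1) scale, where 1 unit is close to a doubling for abundant genes and the added 1 shrinks the differences of scarce ones. Of all genes, 9656 (27.2%) had an FPKM of at least 5 in either sample and were compared. A gene was called higher or lower where the difference was at least 2 and the higher level was at least FPKM 5. By this size rule 215 genes were higher in the coleoptile, which is 2.23% of the genes compared, and 448 were lower, which is 4.64%. Most genes lay close together, as 7519 of the 9656 (77.9%) differed by under 1. The middle of the distribution was at 0.21, with quartiles at -0.25 and 0.62, and its tails were uneven, with the 1st percentile at -3.48 and the 99th at 2.81. Among called genes, 30 of the higher and 63 of the lower differed by at least 4. The excess of lower over higher genes held at a difference of at least 3 (76 higher and 154 lower) and not at a difference of at least 1 (1107 higher and 1030 lower).

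**Figure D1:**
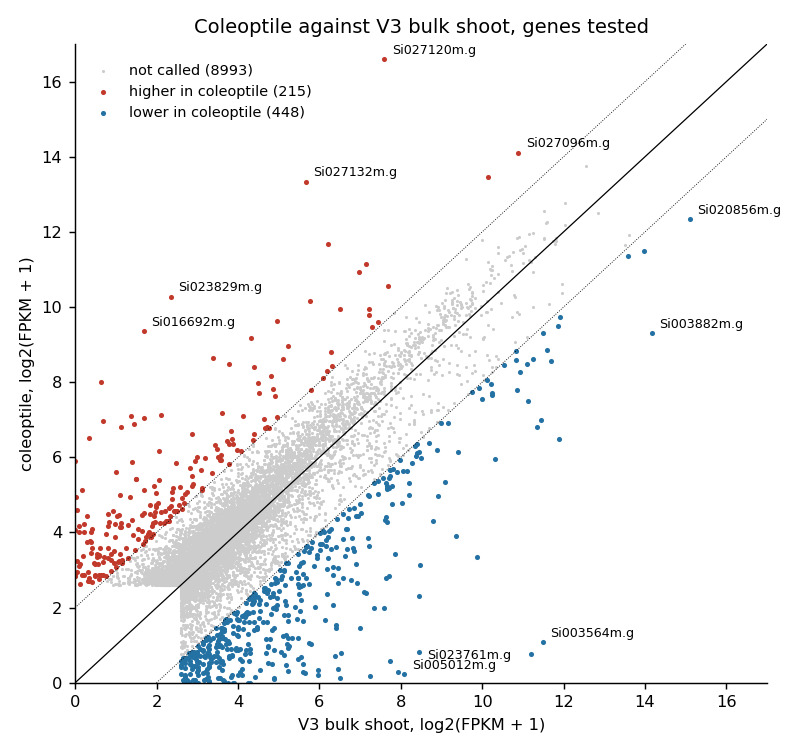
Each point is 1 of the 9656 genes compared, with its level in the V3 bulk shoot on the horizontal axis and in the coleoptile on the vertical axis, both as log2(FPKM + 1). The solid line marks equal levels and the dotted lines a difference of 2; the 215 higher genes (red) and 448 lower genes (blue) lie outside them, with Si027120m.g at the top and Si023761m.g and Si003564m.g near the floor of the coleoptile.

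The most abundant transcripts of the coleoptile and of the shoot overlapped in part. The called genes held a large part of the summed FPKM of genes in each sample. The 215 higher genes made up 21.2% of the sum in the coleoptile against 0.860% in the V3 shoot, and the 448 lower genes made up 2.81% in the coleoptile against 24.1% in the shoot. The 5 higher genes of largest FPKM difference alone held 17.9% in the coleoptile, and the 5 such lower genes 12.4% in the shoot. The genes were called on these same columns, which sets the direction of these contrasts. Of the 10 most abundant genes in each sample 4 were shared. The unshared genes of the coleoptile ranked from 23 to 94 in the shoot, apart from Si027120m.g and Si027132m.g (1406). Those of the shoot ranked from 12 to 36 in the coleoptile, apart from Si003882m.g (195). Si027120m.g alone held 12.6% of the coleoptile's sum and 0.0280% of the shoot's, where it ranked 483. Si020856m.g led the shoot at FPKM 35363 and was ninth in the coleoptile at 5148. Because FPKM is scaled to the total of a sample, transcripts as abundant as Si027120m.g lower the values of all other genes there, and in bulk tissue fewer cells of a type cannot be told apart from less RNA per cell.

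Some abundant genes stood at similar levels in both samples. Si023466m.g was at FPKM 5832 in the coleoptile against 7382 in the shoot (difference -0.34), and Si011152m.g was at 4672 and 4181 (0.16, which turned to -0.04 with equal sums of FPKM). Si023700m.g was at 6936 in the coleoptile against 4181 in the shoot (0.73), and Si038159m.g was at 4938 and 3082 (0.68).

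A group of genes peaked in the coleoptile itself. Of the 215 higher genes, 112 (52.1%) had their highest level of all 13 samples there, against 494 of all genes compared (5.12%); the choice of genes high in the coleoptile sets part of this share. For 45 of them the coleoptile exceeded every other sample by at least 1, and for 18 by at least 2. The sample next in level was most often the vegetative meristem or the root (25 genes each), the pre-anthesis panicle (23) or the inflorescence meristem (15), and never a bulk shoot or the leaf tip.

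Si027120m.g had an FPKM of 99333 in the coleoptile against 193 in the V3 shoot, a difference of 9.0. Its levels in the other 11 samples ran from 1.06 in the root through a median of 98.0 to 941 in the pre-anthesis panicle. The transcript was present in most tissues, and the coleoptile lay 6.72 above the next sample on the log2 scale. Si027132m.g was likewise found in every sample, at 10296 in the coleoptile, 49.9 in the V3 shoot and from 0.932 (leaf tip) to 316 (inflorescence meristem) elsewhere. Si026526m.g was at 3258 in the coleoptile against 73.5 in the shoot, with 890 in the post-anthesis panicle as its next level and 5.06 in the leaf tip as its lowest.

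Other coleoptile genes were scarcer in the remaining samples, to different degrees. Si016692m.g was at FPKM 652 in the coleoptile against 2.20 in the V3 shoot, and no other sample exceeded the 6.21 of the root; both meristems were near that level (6.01 and 5.50) and the 4 leaf parts ranged from 0.0140 to 0.149. Si013424m.g was at 90.8 in the coleoptile against 0.266 in the shoot, with 0.765 in the root as the highest of the others. These 2 genes had the next largest gaps to all other samples after Si027120m.g, at 6.50 and 5.70. Si026778m.g was at 257 in the coleoptile, 0.558 in the V3 shoot and 15.9 in the mid section of leaf 3, and it was listed at 0 in the root. Si037682m.g was likewise listed at 0 in the root, at 137 in the coleoptile, 1.58 in the shoot and 10.6 in the lower section of leaf 3. Si015472m.g was nearly as high in the pre-anthesis panicle (98.7) as in the coleoptile (112), with 1.17 in the V3 shoot.

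**Figure D2:**
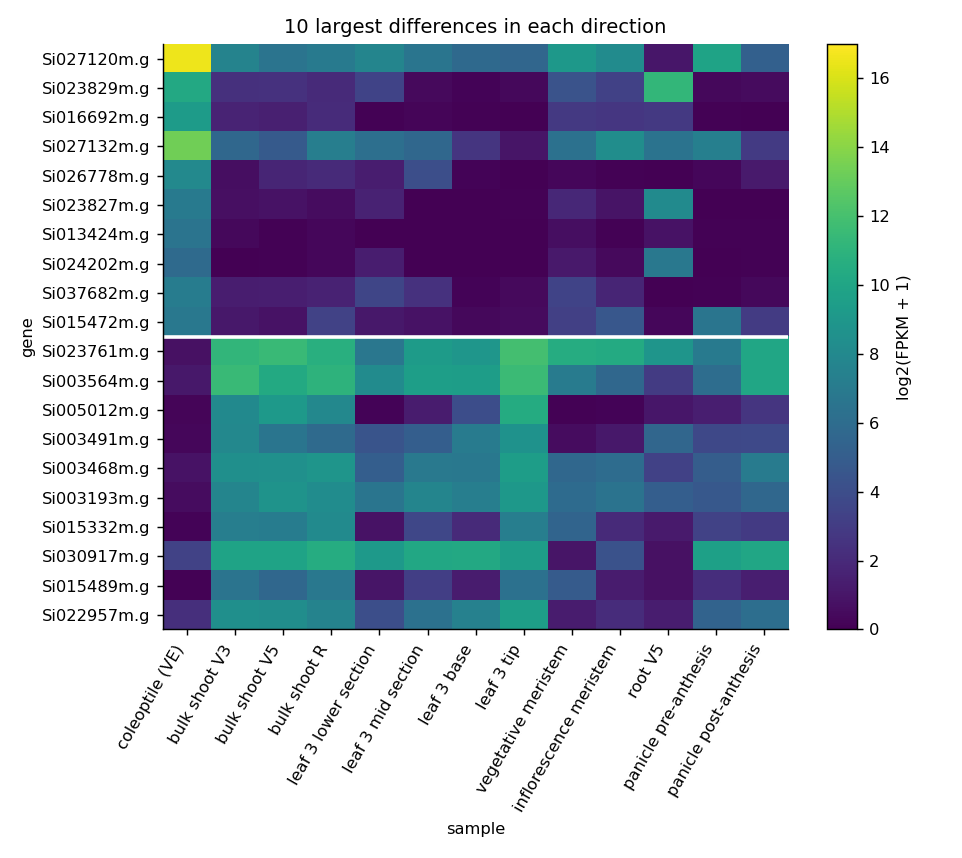
Rows are the 10 higher genes (above the white line) and the 10 lower genes (below it) with the largest differences, columns are the 13 samples, and colour gives log2(FPKM + 1). Si023829m.g, Si023827m.g and Si024202m.g are bright in the coleoptile and the root alone, and the lower genes are dark in the coleoptile and bright in the 3 bulk shoots and the leaf 3 tip.

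A further group was shared with the root. For 49 of the 215 higher genes (22.8%) the root had the highest level of all samples, against 15.0% of all genes compared. On the log2(FPKM + 1) scale the median of these 49 was 6.10 in the root, 4.22 in the coleoptile, 2.70 in the vegetative meristem, and from 0.28 (leaf tip) to 1.76 (inflorescence meristem) in the remaining samples. Si023829m.g reached FPKM 2468 in the root as well as 1234 in the coleoptile, against 4.10 in the V3 shoot and at most 19.4 (vegetative meristem) elsewhere. Si023827m.g was at 285 and 124 in the same tissues and at 0.613 in the V3 shoot. Si024202m.g was at 59.1 in the coleoptile, 112 in the root and listed at 0 in the V3 shoot, so no fold is given. All 3 genes had their next level after these tissues in the vegetative meristem or the lower section of leaf 3, and were at 0.0718 to 4.46 in the V5 shoot. Si023843m.g, also listed at 0 in the V3 shoot, was at 15.7 in the coleoptile, 5.92 in the root and at most 0.173 in the remaining samples. In all, 25 of the higher genes reached FPKM 5 in the root with every leaf part under 1. How many of all genes compared did so was not counted. The higher genes were not uniform in the root, where 110 of 215 reached FPKM 5 and 70 were under 1. Their median log2(FPKM + 1) in the root, 2.68, was below the 3.37 of all genes compared. Reaching FPKM 5 in the root therefore does not set the higher genes apart.

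Some of the most abundant higher genes were shared with meristems and the pre-anthesis panicle. Si027096m.g was at FPKM 17681 in the coleoptile against 1897 in the V3 shoot, and stood at 16727 in the vegetative meristem, 12330.0 in the inflorescence meristem and 24153 in the pre-anthesis panicle. In the root and the leaf base it was at 13.1 and 34.8. Si027118m.g was also highest in the pre-anthesis panicle, at 11267 in the coleoptile, 1127 in the V3 shoot, 8718 and 6426 in the meristems and 12677 in the pre-anthesis panicle, with 22.1 in the root and 8.58 in the leaf base. Whether any of these genes share reads with near-identical copies cannot be read from the table. Si023867m.g was level in the coleoptile and the vegetative meristem (both 210) and at 21.8 in the V3 shoot, and Si003494m.g was at 17.8, 29.1 and 0.972 in these samples. In total 17 of the higher genes (7.91%) were highest in a meristem, against 28.5% of all genes compared, 24 (11.2%) in a panicle, against 12.7%, and 1 in a bulk shoot (R), against 13.4%. The genes were chosen for being high in the coleoptile, where 112 of them peaked. That choice lowers the share of every other tissue, leaf 3 included, so a share below that of all genes is partly set by it. Over all 215 genes the median log2(FPKM + 1) was 3.20 in the vegetative meristem, where all genes compared had 3.99. It was 2.72 in the inflorescence meristem (all genes 4.08), 2.69 in the R bulk shoot (4.30), 2.68 in the root (3.37) and 2.64 in the pre-anthesis panicle (3.85). The leaf base (0.81, all genes 3.37) and the leaf tip (0.62, all genes 3.52) had the lowest medians of the 215 genes.

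Leaf 3 was the peak of 12 higher genes (5.58%, against 25.3% of all genes compared), 10 of them in its mid section. Si003168m.g was at FPKM 500.5 in the coleoptile, 36.5 in the V3 shoot, 884 in the mid section and 759 in the vegetative meristem, with 45.9 in the tip of the leaf. Si038298m.g was at 29.9 in the coleoptile, 1.57 in the shoot and 32.6 in the mid section, was at 0.320 in the tip, and was listed at 0 in the root.

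**Figure D3:**
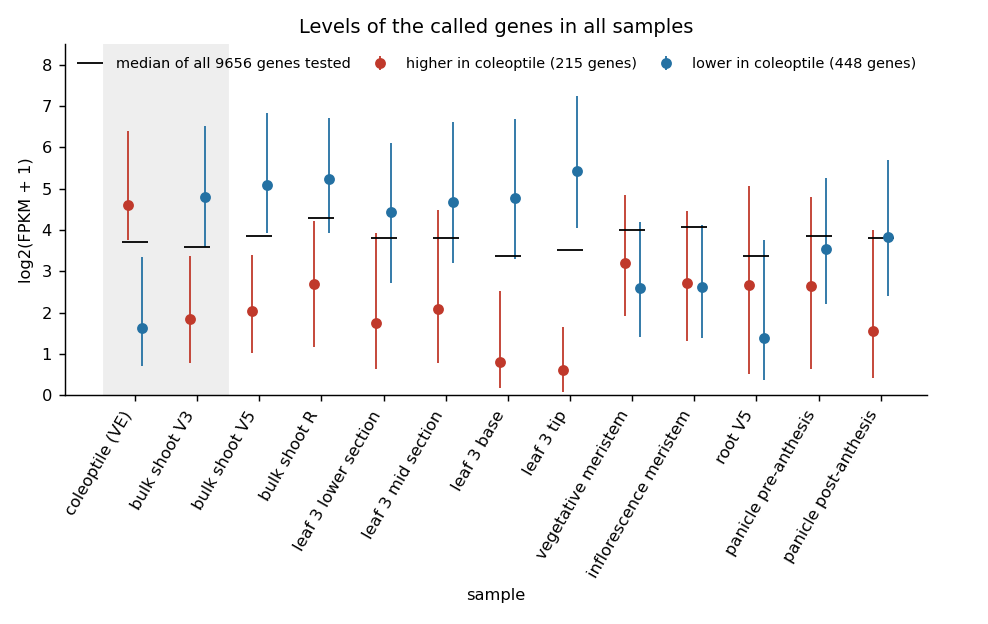
Points are the medians and bars the quartiles, over genes, of log2(FPKM + 1) in each sample for the 215 higher (red) and 448 lower genes (blue), and black dashes are the medians of all 9656 genes compared. The shaded samples were used to call the genes; outside them the lower genes have medians of 4.44 to 5.43 in leaf 3 and 1.40 in the root, and the higher genes are at their lowest in the leaf base and tip.

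Genes lower in the coleoptile mostly had their highest level in leaf 3. Of the 448, 275 (61.4%) had their highest level in a part of leaf 3, of which 180 were in the tip, 44 in the base, 43 in the mid and 8 in the lower section; of all genes compared, 25.3% were highest in leaf 3. A bulk shoot was the peak of 93 genes (20.8%, against 13.4% of all). The genes were chosen for being higher in the V3 bulk shoot, which contains leaves, than in the coleoptile. That choice sets part of the leaf and shoot shares. On the log2(FPKM + 1) scale the 448 genes had medians of 1.64 in the coleoptile, 4.81 in the V3 shoot, 5.43 in the leaf tip, 2.60 and 2.63 in the vegetative and inflorescence meristems, and 1.40 in the root. In 250 of the 448 (55.8%) the root was at or below the coleoptile, and in 187 (41.7%) the vegetative meristem was. The choice of genes low in the coleoptile tends to lower these shares. They were not counted for all genes compared, so they are not read as a trait of the lower genes.

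Some abundant leaf genes were lower in the coleoptile but far from silent. Si020856m.g was at FPKM 5148 in the coleoptile against 35363 in the V3 shoot (difference -2.78), with 48644 in the leaf base as its highest and 98.0 in the root as its lowest level. Si020831m.g was at 2895 and 16046 (-2.47) and Si020830m.g at 2609 and 12245 (-2.23), both highest in the leaf tip, at 20170.1 and 17317. In the meristems these 3 genes ranged from 890 to 1871, below their levels in the coleoptile. Si003882m.g was at 634 in the coleoptile against 18305 in the shoot (-4.85), and Si037022m.g at 88.9 against 3794 (-5.40); both were highest in the leaf (29327 in the base and 5256 in the tip). In the coleoptile 153 of the 448 lower genes still reached FPKM 5 and 161 were under 1.

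The largest differences belonged to genes that were abundant in shoots and nearly missing from the coleoptile. Si023761m.g was at FPKM 0.705 in the coleoptile against 2368 in the V3 shoot, a difference of -10.44. In the other 11 samples it ran from 104 (lower leaf section) through a median of 1074 to 3955 (leaf tip), with 457 in the root and 1447 in the vegetative meristem. The coleoptile was the only sample of the 13 in which this gene was under 100, and lay 5.94 below the next. Si003564m.g was at 1.11 in the coleoptile against 2895 in the shoot (-10.42), and its other levels ran from 6.84 in the root to 3018 in the leaf tip. Si003193m.g was at 0.505 in the coleoptile against 213 in the shoot, and no other sample was under 24.3 (pre-anthesis panicle). Si003468m.g was at 0.765 and 346, with 8.92 in the root as the lowest of the others. Si023738m.g, at 1.07 in the coleoptile, was at 52.8 in the V3 shoot and from 33.1 to 216 in all others. The coleoptile had the lowest level of all 13 samples for 129 of the 448 genes, in 45 of them by at least 1 and in 15 by at least 2. The root was the lowest sample more often, for 215 of the 448. The choice of genes low in the coleoptile sets part of its count, and the count over all genes compared was not made.

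Other lower genes were low in the vegetative meristem or the lower leaf section as well as in the coleoptile. Si005012m.g was at FPKM 0.173 in the coleoptile against 271 in the V3 shoot, with 1379 in the leaf tip, 15.3 in the leaf base, 0.110 in the lower leaf section and 0.0867 in the vegetative meristem. Si003491m.g was at 0.231 in the coleoptile, 243 in the shoot, 406 in the leaf tip and 0.485 in the vegetative meristem. Si022957m.g was at 3.96 and 349, with 733 in the leaf tip and 1.5 in the vegetative meristem. Si015332m.g and Si015489m.g had a pattern of their own, high in the bulk shoots and the leaf tip, of middle level in the vegetative meristem and low in the rest of the leaf. Si015332m.g was at 0.141 in the coleoptile, 151 in the V3 shoot, 277 in the R shoot, 151 in the tip, 43.9 in the vegetative meristem and 0.765 in the lower leaf section. Si015489m.g was at 0.0867, 90.1, 109, 78.9, 28.2 and 0.986 in the same samples. Si030917m.g was at 9.20 in the coleoptile against 935 in the V3 shoot, and was abundant in both panicles (802 and 1066) and in all leaf parts (571 to 1251), while the root (0.729) and the vegetative meristem (0.959) were lower than the coleoptile.

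Smaller groups of lower genes peaked outside leaf and shoot. The root was the highest sample for 38 genes (8.48%, against 15.0% of all). Si003497m.g was at FPKM 0.625 in the coleoptile, 82.9 in the V3 shoot and 250 in the root, and Si029784m.g was at 1.03, 54.7 and 157. A panicle was highest for 30 genes (6.70%, against 12.7% of all), as for Si003555m.g (0.206 in the coleoptile, 49.2 in the shoot and 494 after anthesis) and Si031680m.g (2.18, 69.0 and 500.5). A meristem was highest for 12 (2.68%, against 28.5% of all). The choice of genes high in the V3 bulk shoot sets part of these low shares. Among the genes highest in a meristem, Si014780m.g was at 0.165 in the coleoptile, 61.2 in the V3 shoot and 454 in the vegetative meristem. Si020663m.g was at 0.0718, 28.7 and 390 in these samples. Of 9 lower genes listed at 0 in the coleoptile, those most abundant in the V3 shoot were Si023734m.g (18.6, and 225 in the mid section of leaf 3) and Si031242m.g (17.9, with 29.1 in the root and its highest level, 31.2, in the R shoot).

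**Figure D4:**
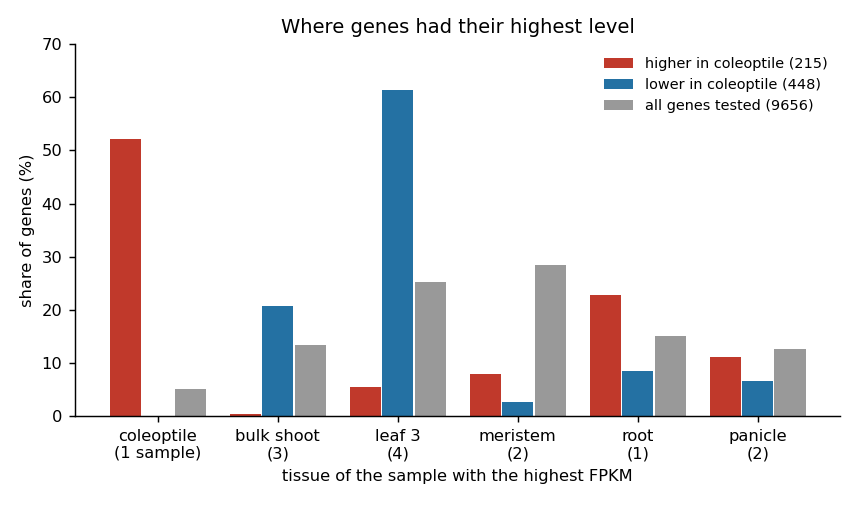
Bars give the share of genes, in percent, whose highest FPKM of the 13 samples fell in each tissue, with the number of samples per tissue in brackets, for the higher (red), lower (blue) and all compared genes (grey). Of the lower genes 61.4% were highest in leaf 3 against 25.3% of all, and of the higher genes 52.1% in the coleoptile against 22.8% in the root. The way the genes were chosen sets part of these shares.

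The called genes were also compared between the tip and the lower section of leaf 3, whose samples were not used to call them. The lower section was taken below the ligule of leaf 2 and the tip at the far end of the blade. In 351 of the 448 lower genes (78.3%) the tip was above the lower section, and the median of tip minus lower section was 1.15. In the 215 higher genes the tip was above the lower section in 33 (15.3%) and the median was -0.87. All genes compared had 40.3% and a median of -0.18. With each sample rescaled by its median ratio these shares were 81.7%, 18.6% and 50.9%, in the same order across the sets. The tip exceeded the lower section by at least 2 in 129 lower genes (28.8%) and 1 higher gene, against 2.28% of all genes compared. The reverse was found for 24 lower (5.36%) and 56 higher genes (26.05%), against 8.01% of all. The bulk shoot itself contains leaves, so its column and those of leaf 3 measure in part the same tissue.

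**Figure D5:**
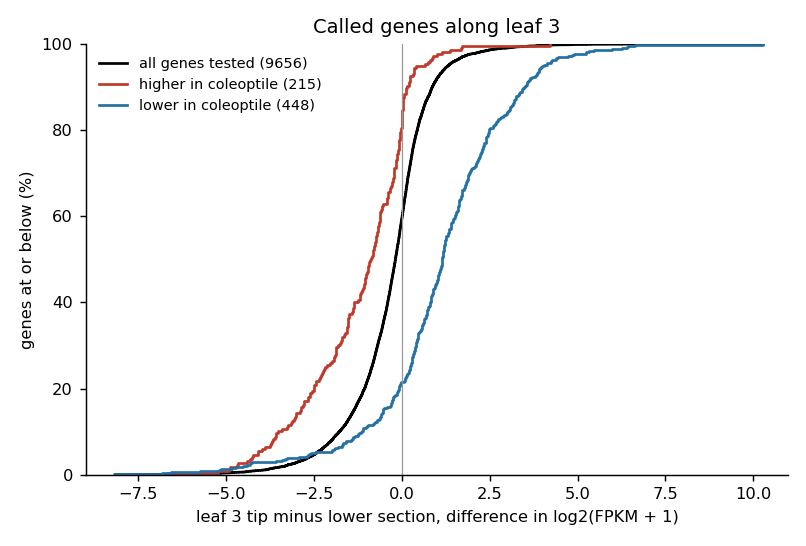
Curves give, for each value of tip minus lower section of leaf 3 in log2(FPKM + 1) on the horizontal axis, the percentage of genes at or below it, for all genes compared (black), higher genes (red) and lower genes (blue). The red curve lies mostly to the left of the black one with a median of -0.87 and the blue curve mostly to the right with a median of 1.15.

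Older bulk shoots gave levels for the same genes. In 120 of the 215 higher genes (55.8%) the coleoptile was at least 2 above the highest of the V3, V5 and R bulk shoots, and in 362 of the 448 lower genes (80.8%) at least 2 below the lowest of them. With median-ratio rescaling the shares were 146 of 196 (74.5%) and 286 of 525 (54.5%), so the larger share turned to the higher genes. It did not turn with equal sums of FPKM (53.5% and 83.8%), nor with equal sums without the 10 most abundant genes of either sample (58.9% and 79.2%). The differences against the 3 bulk shoots share the coleoptile column and are not independent of each other. Taken on its own, the V5 shoot had 271 genes lower than in the coleoptile (2.62% of 10355 compared) and 679 higher (6.56%), and the R shoot 185 lower (1.57% of 11798) and 901 higher (7.64%). The R shoot had higher values for most genes, with a median difference over compared genes of -0.60 for coleoptile minus R shoot, against -0.11 for V5 and 0.21 for V3. From the V5 to the R shoot the lower genes changed by a median of -0.07, while all genes compared moved by 0.41 and the higher genes by 0.35.

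Some abundant leaf genes of the V3 shoot were lower in the R shoot, which brought them nearer to the coleoptile. Si020856m.g went from FPKM 35363 at V3 through 21919.6 at V5 to 10225 at R, where it no longer passed the size rule against the coleoptile (difference -0.99). Si020831m.g was at 5517 in the R shoot (-0.93) and Si020830m.g at 3590 (-0.46). By contrast, Si003882m.g (11346 at R) and Si037022m.g (1807 at R) still passed the size rule, at -4.16 and -4.33. Si030917m.g was higher at R (1457) than at V3 (935). Si023761m.g stood at 2875 at V5 and 1686 at R, and Si003564m.g at 1260 and 2005, all far above their coleoptile levels. Si016692m.g stayed at 1.83 and 3.17 in the older shoots.

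The size rule cuts a continuous range of differences. Just inside it, Si006840m.g was at FPKM 18.8 in the coleoptile against 3.96 in the V3 shoot and Si030550m.g at 220 and 54.3 (both 2.0), while Si005804m.g was at 1.77 and 10.1 and Si008098m.g at 0.580 and 5.32 (both -2.0). Just outside it, Si022572m.g was at 30.1 and 6.84 and Si027181m.g at 80.6 and 19.5 (both 1.99), and Si002459m.g was at 2.39 and 12.5 and Si003752m.g at 3.08 and 15.2 (both -1.99). The balance of gains and losses over all genes depended on scaling. As deposited 6096 of the 9656 genes (63.1%) were higher in the coleoptile by any amount and the median was 0.21, which moved to 0.08 with median-ratio rescaling and 0.01 with equal sums. Called genes differ by at least 2, so shifts of this size cannot change their direction.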

How the data were processed

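The authors deposited log2 values of FPKM per annotated transcript, with 1 column per sample and 2 decimals, read as log2(FPKM + 1). Neither the base nor the added 1 is stated in the labels; both were inferred, since the values then give FPKM sums of 884742 to 1110012 per sample. Per the labels' protocols, polyadenylated RNA was copied with the SMARTer cDNA kit and sequenced as paired-end reads of 100 nt. STAR and DESeq2 are named in the submitters' processing notes without a role. The sources used here do not give the genome build, the annotation or the way replicates were merged. A deposited list holds a start site offset in nt for 4900 genes.

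The table has 40599 transcripts of 35471 genes, and for each gene the transcript with the highest mean FPKM over 13 samples was used. Differences were computed with Python 3.11.15, pandas 2.3.3 and numpy 2.4.6, and figures with matplotlib 3.10.9. Genes were called at a difference of at least 2 with the higher level at FPKM 5 or more. The code of this rule was run on simulated data with an assumed spread. As the real spread is unknown, that run cannot show how often the rule makes false calls here. Intervals and tests need counts or replicates and are not given. Values of exactly 0 may be failed estimates and get no fold.

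Genes were named by size: the 10 largest log2 and 5 largest FPKM differences in each direction, the 2 largest per tissue of highest level, the 3 with the widest gap to all other samples, the 2 most abundant listed at 0 in either sample, the 3 with the most unlike transcripts, 3 abundant genes per sample that differed by under 1, and the 2 nearest the threshold on each side. The comparison, this rule and the groupings were chosen with earlier results of these data known. Alternatives changed the scaling, pseudocount, FPKM minimum, size, transcript and shoot; the rescaled leaf shares were added after seeing the data.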

Additional observations from a re-analysis of the deposited data

How the results depend on the processing

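No paired analysis was possible because each sample had 1 merged column; no replicate could be left out either. Of 99 recomputed counts, 69 stayed within 1.5 times of the reported ones, and under the 3 rescalings and both other transcript choices all did. The rest moved, and apart from the older shoots they follow from where the limits are set. Not all of the 99 are separate checks. A minimum of FPKM 1 and no minimum must give the same counts, because the size rule already leaves out such scarce genes. Taking the transcript highest in either sample changed no count. In the order higher, lower, higher against all 3 bulk shoots, lower against all 3, higher with the peak in the coleoptile, higher with the peak in the root and lower with the peak in leaf 3, the reported counts were 215, 448, 120, 362, 112, 49 and 275. They became 90, 198, 63, 151, 55, 17 and 130 with a pseudocount of 5. An FPKM minimum of 20 gave 124, 254, 74, 203, 65, 22 and 177. A difference of at least 1 gave 1107, 1030, 441, 911, 322, 199 and 670, and one of at least 3 gave 76, 154, 53, 122, 51, 17 and 88. Against the V5 and the R shoot 679 and 901 genes were lower; the cause was not tested. The share of higher among called genes was 32.4% as deposited, 27.2% with median ratios and 24.4% with equal sums. Of 570 recomputed differences of named genes, 24 dropped below the size rule, 17 passed it newly, and no called gene changed direction. The rescalings and pseudocounts could not have changed the direction of a called gene. Only the other shoots and the transcript choices bear on this. Depth is unknown, so the counting error of low genes cannot be given.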

Other observations

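Called genes differed from other genes in how often they had an entry in the list of start site offsets, by an amount that depended on their level. An offset was given for 132 of the 215 higher genes (61.4%), 283 of the 448 lower genes (63.2%) and 3545 of the 8993 genes compared and not called (39.4%). In genes whose higher level lay between FPKM 5 and 20 the shares were 46.2%, 50.0% and 24.4%, and between 20 and 100 they were 71.1%, 64.9% and 59.2%. Between 100 and 1000 the order was not kept, with 68.4% of higher, 84.6% of lower and 80.2% of uncalled genes. Median offsets were -10 nt in higher genes, with quartiles of -41.3 and -2.75, against -7 nt in lower genes and -4 nt in genes not called. Negative offsets made up 76.5%, 62.2% and 55.5% of the 3 sets. The sources used here do not say how the offsets were made or what their sign means.

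Abundant genes were called more often than scarce ones. Of 164 genes at FPKM 1000 or more in either sample 6.10% were higher and 17.1% lower, against 1.52% and 3.25% of 5971 genes between FPKM 5 and 20, where the added 1 shrinks differences.

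Transcripts of the same gene were mostly listed with nearly equal differences. The values have 2 decimals, so a gap of 0.01 is their smallest step. The sources used here do not say how reads shared by transcripts of a gene were assigned. Whether the transcripts were measured separately is therefore unknown, and their agreement is not read as a result. In 2245 genes with 2 or more transcripts at FPKM 5 in either sample, the gap between the largest and the smallest transcript difference had a median of 0.01 and reached 1 in 2 genes. In Si003690m.g, 1 transcript had FPKM 75.6 in the coleoptile against 180 in the V3 shoot (-1.24), and another at 418 and 325 (0.36). In Si026794m.g the transcripts differed by -0.91 and 0.35, and in Si000570m.g by -2.28 and -3.10. Of the 116 called genes among the 2245, 111 had all such transcripts past the size rule in the direction of the gene.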
